A study of Mus musculus with 18 samples.

Results

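Macrophages signal to other cells through secreted and membrane-bound cytokines, and this section follows 10 of their genes in J774.1 cells: Tnf, Il1a, Il1b, Il1rn, Il10, Il18, Tnfsf9, Csf1, Osm and Vegfa. They were chosen by symbol as inflammatory and growth-factor cytokines, and all 10 were found among the 18204 genes of the expression table. Of these, 7 passed the filter on low values that left 16383 genes for testing, and Il1b, Il1rn and Il10 did not. J774.1 cells are a line of mouse macrophages. Wildtype cells and Ctbp1/2 double knockout (dKO) cells, which carry CRISPR mutations in both Ctbp1 and Ctbp2, were each given vehicle (PBS/DMSO), MTOB at 1.5 mM or 4-Cl-HIPP at 250 µM, with 3 samples in each of the 6 groups and 18 samples in all. All cells were lysed 4 h after the addition, and the labels name no inflammatory stimulus in any group. CTBP1 and CTBP2 are transcriptional corepressors with a dehydrogenase domain, and both compounds bind its substrate pocket. MTOB is a keto acid with a methylthio group, and 4-Cl-HIPP is an oxime of a chlorophenyl propanoic acid. The study asked whether effects of the compounds in wildtype cells are also present in cells without CTBPs. The dKO cells were grown from single edited cells and the number of clones sequenced is not given in the sources used here, so the genotype and the clone cannot be told apart. The methods call the samples biological triplicates, and each inhibitor was set against the single vehicle group of its genotype. By the methods MTOB was dissolved in PBS and 4-Cl-HIPP in DMSO, while the main text of the paper names DMSO alone as the vehicle.

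Expression is given as TPM, a transcript abundance that is scaled by transcript length within each sample, so levels of different genes can be compared within a sample while the depth of each sample is unknown. Samples of one group had a Pearson r of 0.983 to 0.987 over all genes. Ctbp1 RNA was at 218 ± 18.1 TPM in wildtype vehicle samples and at 25.1 ± 0.638 TPM in those of the dKO (SD, n = 3 each). Ctbp2 RNA was lowered less, from 92.6 ± 4.57 to 75.9 ± 3.13 TPM (SD, n = 3 each). The paper reports loss of both proteins in dKO cells by western blot, and RNA levels do not measure protein. Of 10 macrophage markers, 9 were listed, and their summed TPM was 2772 to 2862 in wildtype and 2514 to 2582 in dKO cells under vehicle. The sum was 3318 to 3493 in wildtype and 2605 to 2927 in dKO cells with MTOB. Single markers moved in both directions. Between genotypes under vehicle, 2 of the 9 were called as higher and 2 as lower in dKO cells, against 4.83% of all genes. Among these, Itgam had 13.01 to 21.0 TPM in wildtype and 44.1 to 51.3 TPM in dKO cells. Cd14 had 440 to 473 TPM in wildtype and 135 to 149 TPM in dKO cells, and Adgre1 24.6 to 35.3 TPM and 7.94 to 10.01 TPM. With MTOB, Cd14 was at 820 to 857 TPM and Adgre1 at 98.2 to 107 TPM in wildtype cells. In dKO cells with MTOB, Cd14 was at 322 to 329 TPM and Adgre1 at 11.5 to 13.7 TPM. The part of these shifts in the cytokine differences was not tested. Markers of other cell types were at or near 0, since 16 of 25 were not listed and the other 9 summed to at most 3.16 TPM in any sample. Of the 8 tested, 1 was called as higher in dKO cells under each treatment. It was Pecam1, with 0 to 0.07 TPM in wildtype and 0.94 to 1.43 TPM in dKO vehicle samples. Between genotypes, calls made up 4.83%, 4.95% and 4.72% of all genes under vehicle, MTOB and 4-Cl-HIPP. In a bulk sample, fewer cells that express a gene and less RNA per cell cannot be told apart.

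TNF is made as a membrane protein that the protease ADAM17 releases, and it drives inflammatory signalling through its receptors. Tnf RNA is short-lived, because proteins that bind elements of cytokine RNAs recruit decay enzymes. Macrophages transcribe Il1a, Il1b and Tnf strongly after a microbial signal, by way of NF-kB among other factors. IL-18 belongs to the IL-1 family but its precursor is also present in resting macrophages, and caspase-1 cleaves it to the active form. Of the other genes, Il1rn encodes the IL-1 receptor antagonist, Il10 an anti-inflammatory cytokine, Tnfsf9 the 4-1BB ligand that costimulates T cells, Csf1 the growth factor of the macrophage lineage, Osm a cytokine of the IL-6 family and Vegfa the main growth factor of blood vessels.

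Shown are the promoters of the 3 cytokine genes with an adjusted p below 0.05 between genotypes under each treatment (limma, all samples, no fold limit). They are the 250 bases before the RefSeq gene start, which RefSeq lists for 7 of the 10 genes, and each was found once in the mouse build GRCm39. Capitals mark motif matches on either strand, and the matches in these windows do not overlap each other.
Tnf promoter, chr17:35420984-35421233, minus strand: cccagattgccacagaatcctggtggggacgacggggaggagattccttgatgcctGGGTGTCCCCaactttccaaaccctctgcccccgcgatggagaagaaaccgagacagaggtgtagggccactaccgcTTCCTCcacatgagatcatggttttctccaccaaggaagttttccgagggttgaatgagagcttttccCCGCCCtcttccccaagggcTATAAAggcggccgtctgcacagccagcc
Vegfa promoter, chr17:46343304-46343553, minus strand: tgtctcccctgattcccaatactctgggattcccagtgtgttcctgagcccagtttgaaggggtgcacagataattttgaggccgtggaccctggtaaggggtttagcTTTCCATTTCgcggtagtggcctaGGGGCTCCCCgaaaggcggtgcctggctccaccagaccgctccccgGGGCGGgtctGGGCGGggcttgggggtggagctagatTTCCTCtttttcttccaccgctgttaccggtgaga
Il18 promoter, chr9:50465750-50465999, plus strand: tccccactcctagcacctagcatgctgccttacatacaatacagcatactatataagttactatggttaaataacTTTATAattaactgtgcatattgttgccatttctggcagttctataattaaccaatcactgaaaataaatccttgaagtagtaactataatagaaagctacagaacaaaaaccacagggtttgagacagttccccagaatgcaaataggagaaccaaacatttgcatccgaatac

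The letters of a TATA box (TATAAA) begin 29 bases before the start of Tnf. In the Il18 window they lie on the other strand, as TTTATA 175 bases before the start, and the Vegfa window has none. Of 32851 RefSeq promoter windows of the same length, 12.4% hold these letters on either strand. An NF-kB motif, taken as GGG and CC with 5 bases between them, begins 194 bases before the Tnf start and 118 bases before the Vegfa start, and 45.8% of all windows hold one. The Sp1 motif GGGCGG, found in 32.7% of all windows, has 1 match for Tnf at 49 bases and 2 matches for Vegfa. PU.1, a factor of the macrophage lineage, binds sites with GAGGAA, which begins 117 bases before the Tnf start and 35 bases before the Vegfa start and occurs in 23.3% of all windows. An interferon-stimulated response element, GAAA repeated with 2 bases between, is in the Vegfa window and in 2.98% of all windows. No match was found for AP-1 (TGA and TCA with 1 base between, 6.75% of all windows) or NRF2 (TGA and GC with 4 bases between, 35.2% of all windows). The Il18 window thus has TATAAA on the other strand alone, in sequence with 35.6% G and C, against 57.6% for Tnf and 59.2% for Vegfa. It ends 81 bases before the GENCODE start of Il18. A match is a description of the letters only.

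The cytokine genes fell into 3 ranges of level. Under vehicle in wildtype cells, Tnf was the most abundant of the 10 with 65.3 ± 7.27 TPM (SD, n = 3), followed by Tnfsf9 with 28.3 ± 2.20, Il18 with 22.2 ± 3.38 and Vegfa with 13.9 ± 0.301 TPM (SD, n = 3 each). Samples of neighbouring genes in this order did not overlap. Osm at 2.38 ± 0.164 TPM and Csf1 at 0.251 ± 0.177 TPM (SD, n = 3 each) were low. Il1a, Il1b, Il1rn and Il10 were at or near 0, each with a value above 0 in 3 or fewer of the 18 samples. In dKO cells under vehicle, Il18 (37.8 to 48.0 TPM) and Tnf (37.6 to 42.8 TPM) overlapped at the top of the order, and under 4-Cl-HIPP every Il18 value (40.0 to 51.6 TPM) lay above every Tnf value (27.1 to 27.5 TPM). With MTOB, Tnf led in both genotypes.

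**Figure D1:**
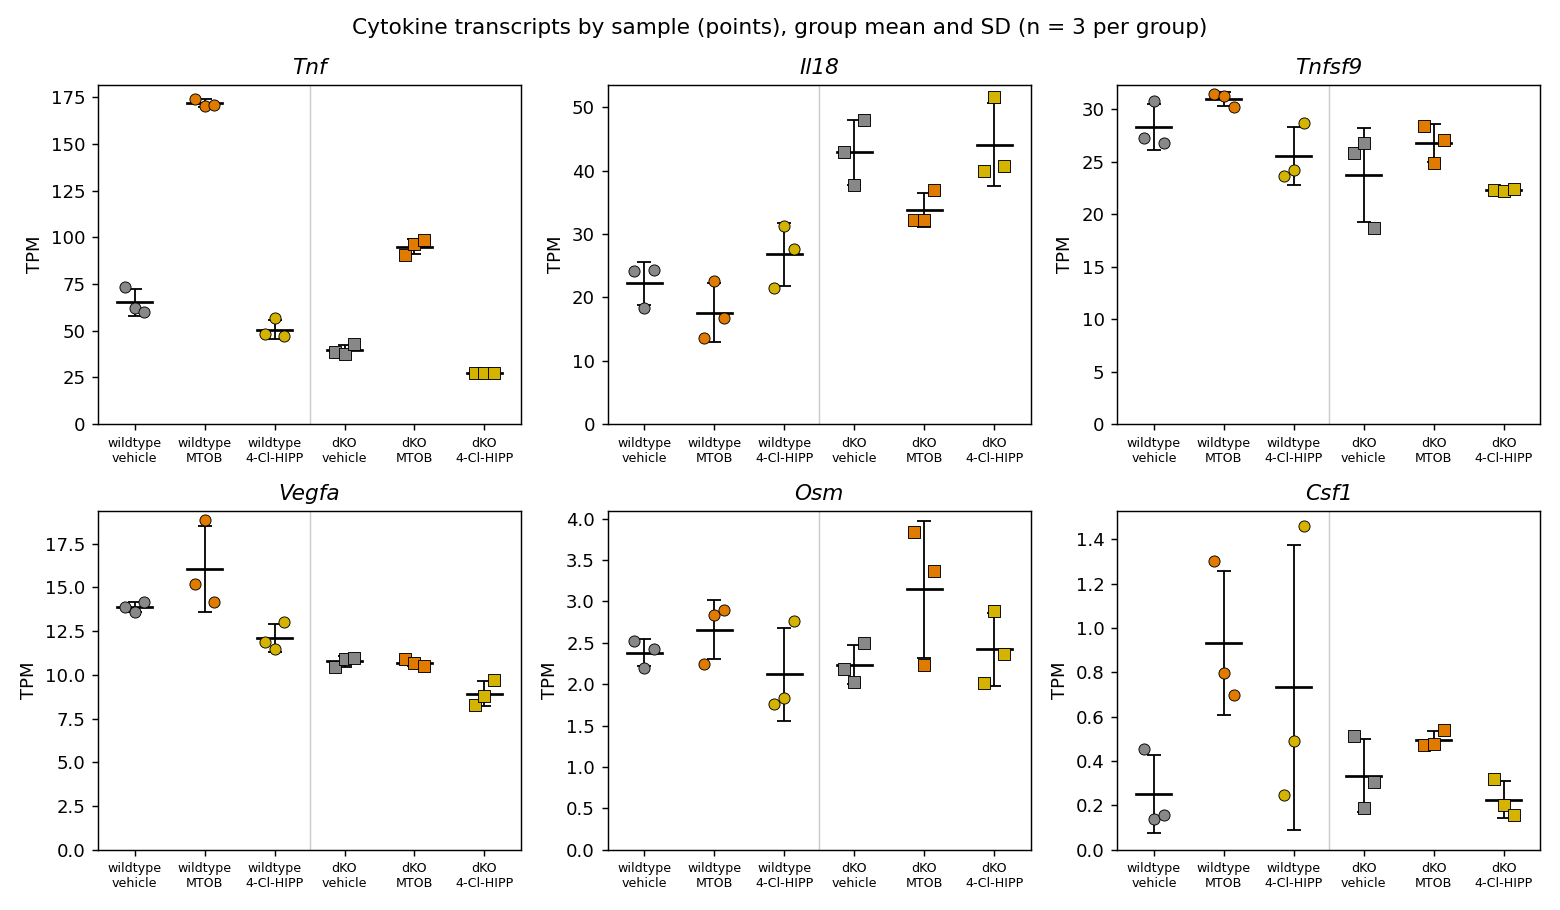
TPM of 6 cytokine genes in each sample, with wildtype cells left and dKO cells right of the grey line in each panel. Points are samples, and bars give the mean and SD of 3 samples per group. Tnf is highest with MTOB in both genotypes, and every Il18 value in dKO cells (32.2 to 51.6 TPM) is above every wildtype value (13.5 to 31.2 TPM).

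Tnf, the TNF gene itself, had the smallest p of the 7 members tested with MTOB in each genotype. Wildtype cells had 73.6, 62.2 and 60.0 TPM under vehicle and 174, 171 and 171 TPM with MTOB. The dKO cells had 38.5, 37.6 and 42.8 TPM under vehicle and 90.4, 96.4 and 98.6 TPM with MTOB. All samples with MTOB were therefore above all vehicle samples of the same genotype. Such groups without overlap, in either direction, made up 22.6% of all genes in wildtype and 21% in dKO cells. The ratio of the Tnf means was 2.63 in wildtype and 2.40 in dKO cells. Tnf rose by 1.39 (SE 0.08, adjusted p = 1.65e-08) in wildtype and by 1.24 (SE 0.08, adjusted p = 6.69e-08) in dKO cells on the log2(TPM + 1) scale (limma, Benjamini-Hochberg over all 16383 genes). By p it ranked 23 in wildtype and 27 in dKO cells among the genes tested. It was the only 1 of the 7 cytokine genes tested that passed the call in these comparisons (adjusted p below 0.05 and a fold change above 1.5), against 2.01% of all genes in wildtype and 1.63% in dKO cells.

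The Tnf response to MTOB in wildtype cells was also present in dKO cells, and the difference between the responses did not pass the test. Wildtype minus dKO, it was 0.15 on the log2 scale with a 95% interval of -0.09 to 0.38 (adjusted p = 0.860, limma). Across all genes, 0.0916% passed the test of this difference, and 0 of the 7 cytokine genes did.

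With 4-Cl-HIPP, Tnf moved the other way. Wildtype cells had 48.1, 56.7 and 47.2 TPM, and dKO cells had 27.5, 27.5 and 27.1 TPM. All were below the vehicle samples of their genotype. This held for 12.6% of all genes in wildtype and 13.7% in dKO cells, counting groups that do not overlap in either direction. The log2 fold change was -0.36 (SE 0.08, adjusted p = 0.0754) in wildtype and -0.52 (SE 0.08, adjusted p = 0.00652) in dKO cells (limma). Neither was called, because the first missed the p threshold and the second was a 1.43-fold decrease, under the limit of 1.5. In wildtype cells the adjusted p ran from 0.0440, without 4-Cl-HIPP replicate 2, to 0.270 over the fits that left out 1 sample (limma). Under the other settings it ran from 0.0458 to 0.467 (limma). In dKO cells it was 0.0931 when only the compared groups were fitted. Averaged over both genotypes, an alternative chosen after the data were seen, the log2 fold change was -0.44 (adjusted p = 0.000575, limma). Without a fold limit, 0.501% of all genes passed in dKO cells and 1.5% in this average. Calls made up 0.14% of all genes in wildtype and 0.153% in dKO cells with 4-Cl-HIPP, and 0 of the 7 cytokine genes were called. The difference between genotypes was 0.16 (95% interval -0.08 to 0.39, adjusted p = 1, limma), and 0% of all genes passed this test (0 genes, against 734 with an unadjusted p below 0.05). The doses and solvents of the compounds differ, and their effects on Tnf are set side by side without a test between them. The part of the solvents in these effects was not tested.

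The dKO cells had less Tnf RNA under all 3 treatments. The fold changes on the log2(TPM + 1) scale were -0.70 (SE 0.08, adjusted p = 1.49e-05) under vehicle, -0.85 (adjusted p = 1.97e-06) with MTOB and -0.86 (adjusted p = 1.79e-06) with 4-Cl-HIPP (limma). Group means were 1.65-fold, 1.81-fold and 1.85-fold lower in dKO cells, and no dKO sample reached a wildtype sample of the same treatment. Groups without overlap, in either direction, made up 26.1%, 23.5% and 25.2% of all genes under vehicle, MTOB and 4-Cl-HIPP. With MTOB, dKO cells at 95.1 ± 4.21 TPM (SD, n = 3) were above wildtype vehicle samples and below wildtype samples with MTOB at 172 ± 2.12 TPM (SD, n = 3). Each of the 3 genotype comparisons called 2 of the 7 cytokine genes, Tnf as lower and Il18 as higher, against 4.83%, 4.95% and 4.72% of all genes under vehicle, MTOB and 4-Cl-HIPP. Tnf shares its locus on chromosome 17 with both lymphotoxin genes. Lta lies 1157 bases away and Ltb 3060 bases away, and the Tnf gene (chr17:35418357-35420983, minus strand) overlaps no other annotated gene.

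Il18 was higher in dKO cells. Under vehicle, wildtype cells had 24.1, 18.3 and 24.3 TPM and dKO cells 42.9, 37.8 and 48.0 TPM. With MTOB the values were 13.5, 22.6 and 16.7 TPM in wildtype and 32.3, 32.2 and 36.9 TPM in dKO cells. With 4-Cl-HIPP they were 21.5, 31.2 and 27.7 TPM in wildtype and 40.0, 51.6 and 40.7 TPM in dKO cells. No group overlapped its counterpart of the other genotype, although single groups spread widely. The same was true of 26.1%, 23.5% and 25.2% of all genes under vehicle, MTOB and 4-Cl-HIPP, in either direction. The log2 fold change of dKO against wildtype was 0.92 (SE 0.18, adjusted p = 0.00288) under vehicle, 0.93 (SE 0.18, adjusted p = 0.00270) with MTOB and 0.71 (SE 0.18, adjusted p = 0.0191) with 4-Cl-HIPP (limma). The ratio of the means was 1.93, 1.92 and 1.65. The call with 4-Cl-HIPP was lost without wildtype 4-Cl-HIPP replicate 1 (adjusted p = 0.101) or dKO 4-Cl-HIPP replicate 2 (adjusted p = 0.0914). When only the compared groups were fitted, the adjusted p was 0.0582 with MTOB and 0.0852 with 4-Cl-HIPP.

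Neither inhibitor passed the test for Il18. MTOB gave a log2 fold change of -0.34 (95% interval -0.73 to 0.05, adjusted p = 0.353) in wildtype and -0.33 (95% interval -0.72 to 0.06, adjusted p = 0.360) in dKO cells (limma). With 4-Cl-HIPP it was 0.25 (adjusted p = 0.826) and 0.04 (adjusted p = 1). Il18 lies on the plus strand of chromosome 9 (chr9:50466081-50493633). Bco2 and Tex12 on the other strand overlap it without sharing exon sequence.

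**Figure D2:**
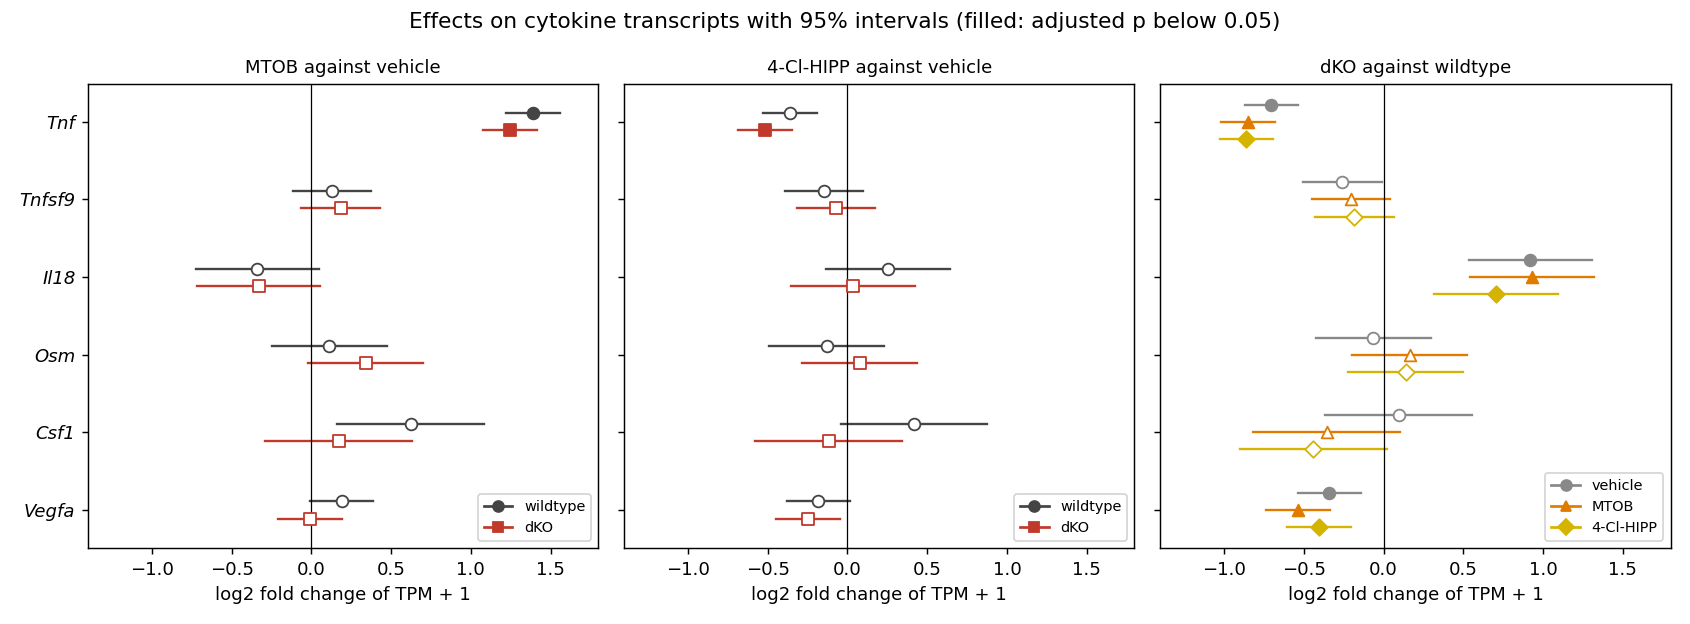
Log2 fold change of TPM + 1 for the cytokine genes tested other than Il1a, with 95% intervals. Filled points have an adjusted p below 0.05 and open points do not. Tnf stands to the right with MTOB in both genotypes (1.39 and 1.24), and dKO against wildtype shows Tnf and Vegfa to the left and Il18 to the right under each treatment.

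Of the IL-1 family, Il1a, Il1b and Il1rn gave too little RNA for a comparison. Il1a was above 0 in 1 wildtype sample with MTOB (0.12 TPM) and in 2 dKO samples with MTOB (0.31 and 0.15 TPM), and was at 0 in the other 15. It passed the filter by a small margin, with a mean normalized count of 0.248 over all samples against a limit of 0.222, and no test of it passed in the fit of all samples. Without dKO MTOB replicate 3, the sample of that group at 0, the adjusted p was 0.0188 with MTOB in dKO cells (limma). It was then 0.0389 for dKO against wildtype with MTOB (limma), and both changes were under the fold limit. Il1a passed the filter only through MTOB samples, and this fit drops the 0 of the dKO group. These p-values are therefore no evidence of a change. Il1b was above 0 in 2 wildtype samples, with 0.18 TPM under MTOB and 0.36 TPM under 4-Cl-HIPP. Il1rn was above 0 in 2 wildtype samples, with 0.18 TPM under vehicle and 0.12 TPM under MTOB. Il10 was above 0 in 2 dKO samples with MTOB (0.22 and 0.19 TPM). A value of 0 in a TPM table gives no upper limit, since the depth of each sample is unknown. Il1a and Il1b lie 54391 bases apart on chromosome 2, and each shares exon sequence with a noncoding RNA on the other strand, which the unstranded kit does not separate.

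Vegfa was lower in dKO cells, by less than the fold limit. Wildtype cells had 13.9, 13.6 and 14.2 TPM under vehicle and dKO cells 10.4, 10.9 and 10.96 TPM. With MTOB the values were 15.2, 18.9 and 14.2 TPM against 10.9, 10.7 and 10.5 TPM, and with 4-Cl-HIPP 11.9, 11.5 and 13.03 TPM against 8.27, 8.79 and 9.73 TPM. No dKO sample overlapped the wildtype samples of its treatment, as was so for 26.1%, 23.5% and 25.2% of all genes under vehicle, MTOB and 4-Cl-HIPP. The log2 fold change was -0.34 (SE 0.09, adjusted p = 0.0280) under vehicle, -0.54 (SE 0.09, adjusted p = 0.00100) with MTOB and -0.40 (SE 0.09, adjusted p = 0.00960) with 4-Cl-HIPP (limma). Without a fold limit, 10.7%, 11.2% and 10.2% of all genes passed. Without wildtype MTOB replicate 3 the value with MTOB was -0.62 and the gene was called. The adjusted p under vehicle rose to between 0.0586 and 0.0914 when any 1 of the 6 vehicle samples was left out, and that with 4-Cl-HIPP rose to 0.0508 without dKO 4-Cl-HIPP replicate 1. With only the compared groups fitted, it was 0.0625 with MTOB and 0.0550 with 4-Cl-HIPP. Neither inhibitor passed the test in either genotype. Vegfa (chr17:46327919-46343309, minus strand) shares exon sequence with the noncoding gene Gm65021 on the other strand.

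Tnfsf9 kept within a narrow range of 18.6 to 31.5 TPM over all samples, and no comparison of 2 groups passed the test. Wildtype cells had 27.3, 30.8 and 26.8 TPM under vehicle and dKO cells 25.9, 26.8 and 18.6 TPM. Wildtype means exceeded dKO means by 1.19-fold under vehicle, 1.16-fold with MTOB and 1.14-fold with 4-Cl-HIPP. The dKO samples were below all wildtype samples of the same treatment in each case, as held in either direction for 26.1%, 23.5% and 25.2% of all genes. Averaged over the 3 treatments, an alternative chosen after the data were seen, the log2 fold change was -0.21 (adjusted p = 0.0293, limma), and 22.4% of all genes passed this test without a fold limit. Tnfsf9 (chr17:57412298-57414769, plus strand) shares exon sequence with the antisense noncoding gene Gm11110.

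Osm and Csf1 were low, with mean normalized counts of 24.6 and 7.48 over all samples against 545 for Tnf, 143 for Tnfsf9, 112 for Vegfa and 82.1 for Il18. Osm ranged from 1.76 to 3.84 TPM, and no comparison of it passed. Its highest values, 3.84 and 3.37 TPM, were in dKO cells with MTOB, where the third sample had 2.23 TPM. Csf1 had 0.46, 0.14 and 0.16 TPM in wildtype vehicle samples and 1.302, 0.80 and 0.70 TPM with MTOB. These groups did not overlap, as held in either direction for 22.6% of all genes, and the ratio of the means was 3.71. The log2 fold change was 0.62 (95% interval 0.16 to 1.08, adjusted p = 0.107, limma) with a pseudocount of 1, and 1.62 (adjusted p = 0.0680, limma) with one of 0.1. Of the 18 fits that left out 1 sample, 1 called Csf1, and the adjusted p ran from 0.0324 to 0.323 (limma). The call came without wildtype 4-Cl-HIPP replicate 3, which at 1.46 TPM was the highest sample. That sample is not in the comparison, so the log2 fold change stayed at 0.62 and only the spread estimate changed. In dKO cells Csf1 had 0.51, 0.19 and 0.30 TPM under vehicle and 0.47, 0.48 and 0.54 TPM with MTOB.

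Over the 18 samples, the genes whose log2(TPM + 1) followed Tnf most closely, among 11039 genes whose mean normalized count was 10 or more, were Ccl3 (Pearson r = 0.988), which encodes a macrophage chemokine, Gm49339 (r = 0.983) and Stap1 (r = 0.982), which encodes a signalling adaptor. For Il18 they were Atp2c1 (r = 0.949), a calcium and manganese pump of the Golgi, Shc1 (r = 0.939), an adaptor of receptor kinases, and Ctnnd1 (r = 0.931), which encodes p120 catenin. The 18 points share the 6 groups, so these values describe group patterns and carry no test.

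Besides the cytokines, 4 lists of genes of their pathways were examined in the same fit: receptors and binding proteins, proteins for processing and release, factors of cytokine mRNA decay, and other cytokines and growth factors. With MTOB in wildtype cells, 1 of 15 receptor genes, 1 of 14 processing genes, 2 of 13 decay genes and 4 of 26 other cytokine genes tested were called, all as higher, against 2.01% of all genes. In dKO cells the counts were 0 of 15, 0 of 14, 2 of 13 and 3 of 26, also all higher, against 1.63% of all genes. The median log2 fold changes of the lists in wildtype cells were 0.11, 0.17, -0.01 and 0.05, beside -0.01 over all genes tested. No gene of these lists was called with 4-Cl-HIPP in either genotype, against 0.14% of all genes in wildtype and 0.153% in dKO cells. By adjusted p alone, 1 of 26 other cytokine genes was higher with 4-Cl-HIPP in each genotype. In dKO cells 1 of 15 receptor genes was also higher. By the same rule, 53 of all 16383 genes were higher in wildtype and 66 in dKO cells.

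In the processing list, Rhbdf2 was the gene called with MTOB. It encodes iRhom2, which carries ADAM17 to the cell surface, and had 16.3, 14.8 and 14.5 TPM in wildtype vehicle samples and 25.05, 26.3 and 29.5 TPM with MTOB (log2 fold change 0.79, adjusted p = 7.90e-06, limma). In dKO cells the log2 fold change was 0.46 (adjusted p = 0.00175, limma), under the fold limit. The decay list moved both ways with MTOB, with 3 of 13 genes higher and 2 lower by adjusted p alone in each genotype. By the same rule, 622 of all 16383 genes were higher and 567 lower in wildtype. In dKO cells these were 498 and 580 genes. Zc3h12c, of the family of RNases that includes Regnase-1, had 9.35 ± 0.866 TPM under vehicle and 18.7 ± 1.02 TPM with MTOB in wildtype, and 16.1 ± 0.219 and 34.0 ± 1.93 TPM in dKO cells (SD, n = 3 each). It rose with MTOB in wildtype (0.93, adjusted p = 1.20e-07) and in dKO cells (1.04, adjusted p = 4.81e-08), and was higher in dKO cells under each treatment (0.73 to 0.83, limma). Zc3h12a, which encodes Regnase-1, was called with MTOB in both genotypes (0.70, adjusted p = 0.0464, and 0.81, adjusted p = 0.0235, limma), but the call was lost without 1 sample in 13 of 18 cases in wildtype and 4 of 18 in dKO cells. The Zc3h12a call was also lost under 5 of 8 other settings in wildtype and 1 of 8 in dKO cells. Adam17, named after its values were seen, passed the p threshold with MTOB in both genotypes (0.53 and 0.55, adjusted p = 5.87e-05 and 5.34e-05, limma) and stayed under the fold limit.

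Among other secreted factors, Spp1, which encodes osteopontin, rose with MTOB from 189 ± 19.5 to 562 ± 38.4 TPM in wildtype and from 222 ± 4.36 to 466 ± 26.5 TPM in dKO cells (SD, n = 3 each). Its log2 fold changes were 1.57 (adjusted p = 1.08e-09) and 1.07 (adjusted p = 8.34e-08), and the difference between genotypes was 0.50 (adjusted p = 0.0852, limma). Ltb, which encodes lymphotoxin beta and neighbours Tnf, rose in both genotypes, by 0.84 (adjusted p = 0.000181) and 0.65 (adjusted p = 0.00208, limma). The dKO value fell below the fold limit without dKO MTOB replicate 3 (0.58). Lta, the other neighbour, had at most 0.77 TPM in any sample and passed no test. Ebi3, a subunit of IL-27 and IL-35, was called in wildtype cells (0.83, adjusted p = 6.58e-05) and stayed under the fold limit in dKO cells (0.47, adjusted p = 0.00874, limma). The receptor gene Il10ra did likewise, with 0.73 (adjusted p = 1.35e-05) in wildtype and 0.54 (adjusted p = 0.000288, limma) in dKO cells. Igf1 rose in wildtype cells (0.89, adjusted p = 0.00799, limma). The Igf1 call was lost when only the compared groups were fitted (adjusted p = 0.149, limma) and with a pseudocount of 0.1 (adjusted p = 0.164, limma). Pdgfb passed the p threshold in wildtype cells (0.41, adjusted p = 0.00246) and was called in dKO cells (0.62, adjusted p = 7.37e-05, limma), though not without dKO vehicle replicate 1 or dKO MTOB replicate 2. Pdgfb was also higher with 4-Cl-HIPP, under the fold limit. Over the fits without 1 sample it rose by 0.44 to 0.54 in wildtype (adjusted p 0.00467 to 0.0498, limma). In dKO cells Pdgfb rose by 0.42 to 0.52 (0.00655 to 0.0634, limma). In the same fits Il10ra rose with 4-Cl-HIPP by 0.44 to 0.51 in dKO cells (0.00412 to 0.0495) and by 0.27 to 0.35 in wildtype (0.0619 to 0.291, limma). No gene of these lists passed the test of a difference in the MTOB effect between genotypes, which 0.0916% of all genes passed.

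Between genotypes, the receptor and decay lists had calls only as higher in dKO cells, the processing list had none, and the other cytokines had calls in both directions. Under vehicle, 1 of 15 receptor genes, 0 of 14 processing genes, 1 of 13 decay genes and 4 of 26 other cytokine genes were called, against 4.83% of all genes. With MTOB the counts were 2, 0, 1 and 7 (4.95% of all genes), and with 4-Cl-HIPP 1, 0, 1 and 2 (4.72% of all genes). Igf1, a growth factor that macrophages secrete, had 7.08 ± 1.66 TPM (SD, n = 3) in wildtype vehicle samples and was listed at 0 in all dKO samples with vehicle or MTOB, and at 0 to 0.34 TPM with 4-Cl-HIPP. Tnfsf13b, which encodes the B cell factor BAFF, was higher in dKO cells under vehicle (1.37, adjusted p = 0.000965) and with MTOB (1.04, adjusted p = 0.00836, limma). Nrp1, which encodes a coreceptor of VEGF-A, was higher in dKO cells under all 3 treatments, with 0.34 to 1.05 TPM in wildtype and 1.48 to 2.15 TPM in dKO vehicle samples (0.76, adjusted p = 0.00596, limma). The Nrp1 call with 4-Cl-HIPP was lost without dKO 4-Cl-HIPP replicate 1 (adjusted p = 0.0506), and that under vehicle when only the compared groups were fitted (adjusted p = 0.0944). Pdgfa was higher in dKO cells with MTOB (1.46, adjusted p = 0.000257) and 4-Cl-HIPP (1.01, adjusted p = 0.00591), and Pdgfb with MTOB (0.67, adjusted p = 1.31e-05, limma). Ltb was lower in dKO cells with MTOB (-0.71, adjusted p = 0.000472, limma), the direction that Tnf took.

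The other calls between genotypes were lost when some single samples were left out. Pdgfa and Tnfsf13 under vehicle and Tnfsf13 with MTOB were called as higher in dKO cells (adjusted p = 0.0485, 0.0371 and 0.0466, limma), and lost the call in 15, 4 and 14 of the 18 fits that left out 1 sample. Tnfrsf9, the receptor of the Tnfsf9 product, was called with MTOB (1.297, adjusted p = 0.0116, limma), with 0 to 0.42 TPM in wildtype and 0.79 to 3.25 TPM in dKO cells, and lost the call without wildtype MTOB replicate 2 or dKO MTOB replicate 3. Il15 was called with MTOB (1.61, adjusted p = 0.0227, limma), with 0.67 to 1.26 TPM in wildtype and 3.20 to 7.91 TPM in dKO cells, and lost the call without wildtype MTOB replicate 2, wildtype MTOB replicate 3 or dKO MTOB replicate 1.

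**Figure D3:**
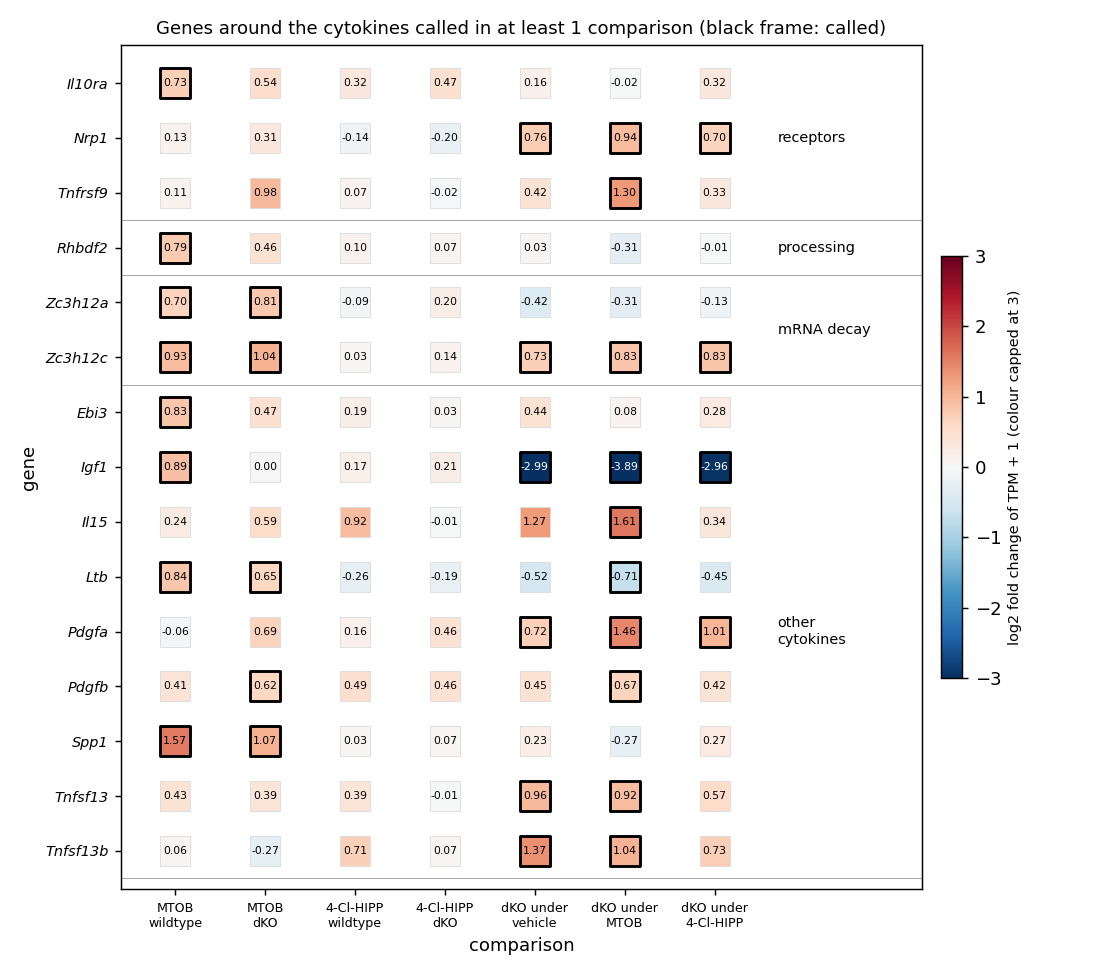
Log2 fold change of TPM + 1 (colour scale) for the 15 genes of the 4 lists that were called in at least 1 of the 7 comparisons of 2 groups, with genes in rows and comparisons in columns. A black frame marks a call. The columns for 4-Cl-HIPP against vehicle hold no frame, and Spp1 and Zc3h12c are framed with MTOB in both genotypes.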

How the data were processed

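RNA of 18 J774.1 samples was sequenced, and the authors deposited 1 table of 18204 genes. Its TPM were computed by the authors with Salmon 1.9.0 on Gencode M28 and summarised with tximport, and each sample sums to 999766 to 999897. The deposited table also holds a signal, the mean normalized count per gene from the authors' DESeq2 1.44.0 run, used here for the filter and the variance trend. Its remaining columns are log2 fold changes and adjusted p-values that the authors obtained for each inhibitor in each genotype, and they were not used. The labels name polyA RNA, and the methods an rRNA depletion and a kit without strand information.

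Groups came from the genotype and treatment in the labels. Genes past the 10th percentile of the mean normalized count (0.222) entered a fit on log2(TPM + 1) with 6 group means over all 18 samples (limma 3.58.1, R 4.3.3, empirical Bayes with a trend on the log2 mean normalized count). P-values were adjusted by Benjamini-Hochberg over the 16383 genes. A call needed an adjusted p below 0.05 and a fold change above 1.5, and a difference between genotypes an adjusted p below 0.05 alone. For genes with low TPM this scale gives a change that is too small, and no counting interval is given, since TPM do not hold the depth of each sample. The procedure was tested on simulated data.

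Cytokine genes and lists were chosen with earlier results of these data known. Named were all members, Ctbp1, Ctbp2, every list gene called in at least 1 comparison, and the 3 genes most correlated with each called member. Alternatives were other pseudocounts (0.1, 0.5), filters, no trend, rescaled TPM, only the compared groups, a replicate block and leaving out each sample.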

Additional observations from a re-analysis of the deposited data

How the results depend on the processing

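No call of Tnf changed under any alternative, and no called cytokine gene changed direction. The calls of Il18 with MTOB and 4-Cl-HIPP between genotypes depended on the shared spread estimate, and a fit of the compared groups alone called 1 cytokine gene in each of these comparisons. That fit has fewer samples, and it called 135 genes with MTOB in dKO cells, 15 and 7 with 4-Cl-HIPP in wildtype and dKO cells, 2 for the difference of the 4-Cl-HIPP effect between genotypes and 3 list genes for dKO against wildtype under vehicle. It also ended the calls of Il15, Tnfrsf9 and Tnfsf13b with MTOB between genotypes (adjusted p = 0.0541, 0.120 and 0.0659, limma). For the difference of the MTOB effect between genotypes, 6 genes passed without a variance trend, and 1 list gene (Spp1) under the stricter filter of 10 mean normalized counts or more. The cause was not tested.

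No pairing of the samples by the replicate numbers of the labels was detected, which does not exclude a paired design. Of 21 pairs of samples with the same number in the groups compared, 0 had a correlation of deviations above 0.1 (-0.13 to 0.09), and samples correlated best with their own number in 19 of 90 cases. With the replicate block, the difference of the MTOB effect between genotypes gave 8 genes in place of 15, and Zc3h12a with MTOB in wildtype was no longer called (adjusted p = 0.0665, limma).

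Leaving out each sample in turn gave 9 to 25 genes with 4-Cl-HIPP in wildtype and 12 to 31 in dKO cells, 7 to 20 for the difference of the MTOB effect and 0 to 3 for that of the 4-Cl-HIPP effect. The cytokine genes called ranged from 1 to 2 with MTOB in wildtype and from 1 to 2 for dKO against wildtype with 4-Cl-HIPP, and list genes from 3 to 6 with MTOB in dKO cells. Osm, Csf1 and the IL-1 genes had mean normalized counts too low for small changes to be detectable.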
